A study of Mus musculus with 5 samples.

Results

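The replication-dependent histone genes were examined in single-cell RNA-seq of mouse salivary gland organoids (mSGOs) and of freshly isolated gland tissue. They were taken as the genes whose symbol begins with Hist1h, Hist2h, Hist3h or Hist4h and that had at least 10 unique molecular identifiers (UMIs, each a tag for 1 captured mRNA molecule) summed over the 5 libraries. Of 67 genes with such a symbol, 47 met the minimum, out of 32932 genes in either gene list, and they held 47161 UMIs. There were 5 members for the linker histone H1, 11 for H2A, 13 for H2B, 9 for H3 and 9 for H4. The members just inside the minimum were Hist2h2ab and Hist1h3b with 10 UMIs each and Hist1h2bf with 15. Those just outside were Hist1h2af with 9, Hist1h3g with 8 and Hist1h4k with 7 UMIs, and 4 listed genes had none.

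Replication-dependent histone genes supply the histones that package new DNA, and their mRNAs rise sharply in S phase, when DNA is copied. The nucleosome core is built of H2A, H2B, H3 and H4, and H1 binds the DNA between nucleosomes. Most mRNAs end in a poly(A) tail, whereas these mRNAs classically end just after a short stem-loop that the stem-loop binding protein Slbp recognises, without a tail. Some histone genes can also be read through to a downstream poly(A) signal, which gives a tailed mRNA in cells that are differentiated or have left the cell cycle. Libraries that are primed on poly(A), such as the 3′ libraries used here, capture tailed RNA, so that the UMIs below count the captured part of histone mRNA and not all of it.

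All animals were C57BL/6 mice. Organoids were grown from dissociated submandibular salivary gland cells of 4 animals in Matrigel, a basement membrane gel, in a medium with Wnt3a, R-spondin1 and the kinase inhibitor Y27632. The groups were untreated 7-day mSGOs (control), 7-day mSGOs given 7 Gy of photons on day 5, 7-day mSGOs given 7 Gy of protons (plateau region of the beam) on day 5, mSGOs of day 11 without treatment, and fresh tissue of the gland that was neither cultured nor irradiated. The labels give an age of 8 to 12 weeks for all but the 11-day mSGOs, for which other mice and another run were used. In every group 45000 cells that excluded propidium iodide were sorted, and each group was 1 library in which cells of several animals could not be told apart. With 1 library per group no difference was tested. The 95% intervals cover counting error alone, and not the variation between barcodes, animals, cultures or libraries.

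After filtering, 1409 to 16085 barcodes and 5954567 to 32070703 UMIs were kept per library. The median depth was 898.5 UMIs per barcode in the control, 1049 with photons, 969 with protons, 2389 in tissue and 3025 in 11-day mSGOs. In tissue only 1409 of 13547 deposited barcodes passed. The libraries shared 3 to 69 barcodes per pair, at most 0.639% of the smaller library. Salivary epithelium markers led by Krt14 took 11900 UMIs per 1000000 (CPM) in control mSGOs, whereas in tissue acinar markers took 42560, immune cell markers 4202 and red blood cell markers 3052 CPM. The median ratio of all genes to the control was 0.09 with photons, 0.08 with protons, 0.91 at day 11 and -1.05 in tissue on the log2 scale, so that differences from the last pair of libraries are to be read against those values.

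The transcript ends of the members are shown first, because they bear on which mRNAs a 3′ library can capture. All 47 members were matched by gene ID to the GENCODE vM39 annotation of GRCm39, where 36 lie on chromosome 13, 8 on chromosome 3, 2 on chromosome 11 and 1 on chromosome 6. The annotated transcripts were searched for a stem of 6 base pairs without mismatch around a loop of 4 bases, where the first arm starts with GG and the loop with TT. A match anywhere in a transcript was found in 35 members, and no share over all genes was computed for this search. A match within 60 bases of the end of a transcript was found in 12 of the 47 members and in 29 of 78348 annotated genes (0.037%). The following lines show the stem-loop with 5 bases on either side, as read 5′ to 3′ in the transcript, with the paired stem in capitals. They were chosen to show the leading members and the kinds of loop.
Hist1h2bc: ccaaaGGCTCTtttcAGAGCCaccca
Hist1h1e: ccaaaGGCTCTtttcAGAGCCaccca
Hist1h1c: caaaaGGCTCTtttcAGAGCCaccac
Hist1h2ae: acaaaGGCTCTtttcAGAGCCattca
Hist1h2ab: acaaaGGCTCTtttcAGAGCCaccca
Hist2h2ac: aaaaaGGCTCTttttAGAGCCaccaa
Hist1h3e: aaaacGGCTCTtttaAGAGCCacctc
Hist1h4d: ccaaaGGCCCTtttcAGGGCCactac
Hist1h4i: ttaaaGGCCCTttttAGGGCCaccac
Hist1h4j: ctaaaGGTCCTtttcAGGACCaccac

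The core with GGCTCT and a loop of tttc was present in 22 members of the classes H1, H2A, H2B and H3. The loop tttc between GGCCCT and AGGGCC was found in 5 members, all of them H4, and the loop tttt between the same arms in 2 more H4 members. The loop ttta, as in Hist1h3e, was found in 4 members, of which 3 were H3. No match was found in the annotated transcripts of 12 members, among them Hist1h1b and Hist1h1a, which says only that these letters were not in the annotated sequence.

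Where the annotated transcript went on after the stem-loop, it did so by very different lengths. In 11 members the longest annotated end lay within 60 bases of the loop, and these held 3.85% of the member UMIs. In 24 members, including Hist1h2bb with both a short and a long end, it ran further, and these held 85.4%. The 12 members without a match held 10.7%. Median UMIs per member were 107 for the short ends, 136.5 for the long ends and 27.5 without a match, so that the share of the long ends rested on a few genes. Hist1h2bc (H2bc4 in the annotation) has its stem-loop at chr13:23868630-23868645 on the plus strand and 373 annotated bases after it, reached by splicing. Hist1h1e (H1f4) has 1153 bases after the loop at chr13:23805765-23805780, and Hist1h1c (H1f2) has 840 after the loop at chr13:23923495-23923510. In contrast, Hist1h2ab ended 11 bases after its loop and yet held 688 UMIs.

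The poly(A) signal AATAAA was searched on the transcript strand in the last 50 bases of the transcripts. It was present in 12 of the 24 members with a long end and in 0 of the 11 with a short one, and in 3 of the 12 without a loop match. The lines below show the signal in capitals with 8 bases on either side in the 3 members of this kind with the most UMIs, because it is the element after which a tail is added.
Hist1h2bc: gtatatatAATAAAtgtcatgt
Hist1h1c: atgcttctAATAAAaagcgttt
Hist1h2ae: gcttctccAATAAAtgggtcaa
The signal of Hist1h2bc lies at chr13:23876445-23876450, 13 bases before the annotated end. That of Hist1h1c is 20 bases before the end and that of Hist1h2ae 22. Hist1h1e, Hist1h4d and Hist1h4i, with 11417, 1393 and 1158 UMIs, had a long annotated end without these letters in its last 50 bases, and the bases before these were not searched.

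**Figure D1:**
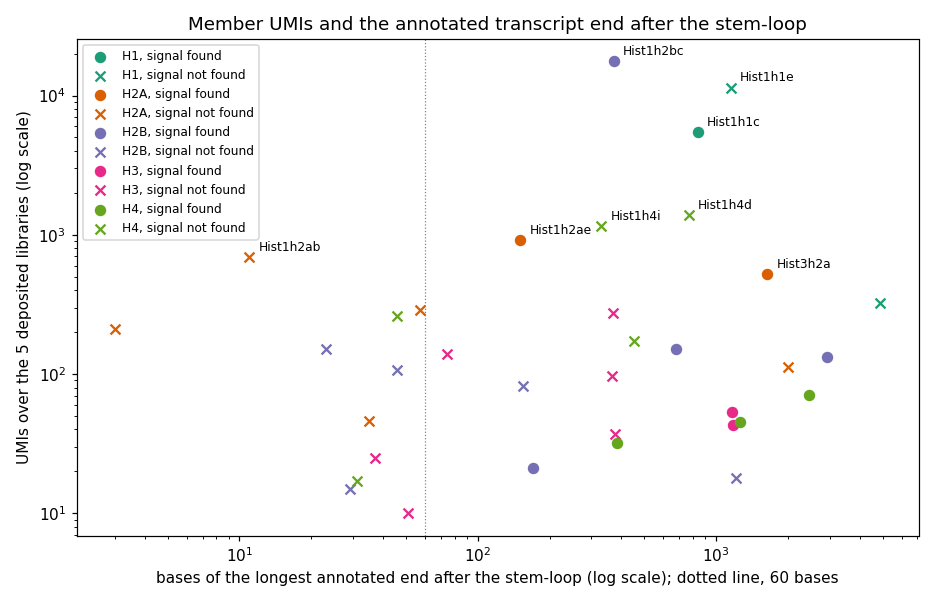
UMIs of each member over the 5 deposited libraries (y axis, log scale) against the annotated bases after its stem-loop (x axis, log scale), for the 35 members with a match. Colours mark the histone class, circles an AATAAA in the last 50 bases and crosses none, and the dotted line stands at 60 bases. Hist1h2bc, Hist1h1e and Hist1h1c lie to the right of the line, and Hist1h2ab, at 11 bases, lies to the left with 688 UMIs.

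The promoters of the members share short elements. A RefSeq promoter (GRCm38.p6, 250 bases before the start and 50 after it) was found for 42 members. The CCAAT box was present on either strand in 37 of the 42 (88.1%), against 37.4% of 32851 promoters. TATAAA was present in 25 (59.5%, against 13.6% of all promoters). ATTTGCAT, the octamer, was present in 9 (21.4%, against 1.74%), of which 5 were H2A and 4 H2B genes. TTTCGCGC was present in 3 (7.14%, against 0.323%). GGGCGG was as common as elsewhere, with 35.7% in both. Some H2A and H2B genes start only 176 to 300 bases apart on opposite strands. Their windows can overlap, so that 1 match can be counted for both genes. These are matches of letters and not binding sites. The promoters of Hist1h1b and Hist1h1e are printed because these H1 genes with many UMIs are followed across the cell cycle divisions below, and that of Hist1h2ae because its window also holds the octamer. Capitals mark matches on either strand to the CCAAT box, to the TATA box searched and to the octamer, and each promoter is read 5′ to 3′ on the gene's strand, which is minus in each case.
Hist1h1b, chr13:21780576-21780875: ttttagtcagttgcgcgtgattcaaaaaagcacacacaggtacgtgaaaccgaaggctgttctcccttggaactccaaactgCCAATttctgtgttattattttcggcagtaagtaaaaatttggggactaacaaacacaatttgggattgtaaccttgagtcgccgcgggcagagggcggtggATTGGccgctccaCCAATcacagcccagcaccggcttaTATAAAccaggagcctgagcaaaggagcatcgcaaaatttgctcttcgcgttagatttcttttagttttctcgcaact
Hist1h1e, chr13:23622509-23622808: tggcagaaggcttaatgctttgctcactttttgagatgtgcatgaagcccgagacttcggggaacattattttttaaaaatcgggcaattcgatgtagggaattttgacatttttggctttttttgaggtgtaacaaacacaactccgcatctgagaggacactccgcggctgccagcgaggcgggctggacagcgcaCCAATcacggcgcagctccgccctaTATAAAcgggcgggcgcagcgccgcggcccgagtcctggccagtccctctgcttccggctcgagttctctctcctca
Hist1h2ae, chr13:23571171-23571470: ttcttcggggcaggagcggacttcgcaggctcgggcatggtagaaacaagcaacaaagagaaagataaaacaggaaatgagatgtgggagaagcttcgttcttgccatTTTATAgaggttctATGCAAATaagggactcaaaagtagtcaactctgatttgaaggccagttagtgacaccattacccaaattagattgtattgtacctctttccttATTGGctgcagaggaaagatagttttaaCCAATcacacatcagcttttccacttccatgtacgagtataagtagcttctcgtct
Hist1h1b held 3 CCAAT matches in this window, Hist1h2ae 2 and Hist1h1e 1. In the Hist1h2ae line the TATA and octamer matches are those of the opposite strand. Hist1h2bg starts on that strand 176 bases away, and which gene these matches serve was not tested.

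Member UMIs were then compared between libraries as CPM, which is UMIs per 1000000 UMIs of the library and is not divided by gene length. All members together took 581 CPM in the control (95% Poisson interval 569 to 593), 492 with photons (483 to 501), 469.8 with protons (462 to 478), 182 in tissue (172 to 194) and 167 in 11-day mSGOs (163 to 172). All 3 7-day libraries were thus above tissue and 11-day mSGOs, with no overlap of the intervals. In such sums fewer cells with histone mRNA and less histone mRNA per cell cannot be told apart. Reads of near-identical histone copies may be split or lost in counting, and values of single copies are uncertain for that reason. The annotated spans of 4 pairs of members overlap, of which Hist1h1e and Hist1h2be do so on the same strand over 528 bases.

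A few genes carried these sums. Hist1h2bc, Hist1h1e, Hist1h1c and Hist1h1b held 82.6% of the deposited member UMIs, and 24 of the 47 members held 10 to 99 UMIs each. By class, 46.6% of the UMIs were H1, 39.0% H2B, 6.81% H4, 6.06% H2A and 1.51% H3. Nucleosomes hold the core histones in equal numbers, so the captured UMIs were not in that proportion.

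**Figure D2:**
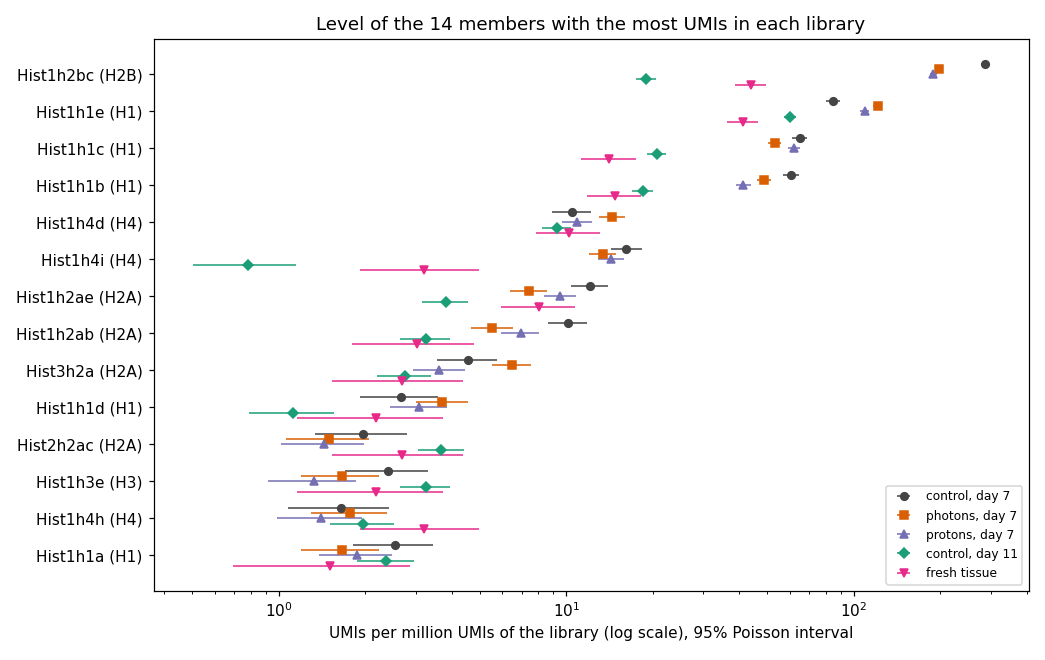
CPM (x axis, log scale) of the 14 members with the most UMIs (rows) in each library (colours and shapes), with 95% Poisson intervals. Hist1h2bc spans 18.9 CPM in 11-day mSGOs to 287 in the control, whereas Hist1h1e lies between 41.1 and 121 in all 5 libraries.

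Among the H1 genes, Hist1h1e, which encodes a linker histone common in somatic cells, had 84.7 CPM in the control (80.3 to 89.4), 121 with photons (117 to 126), 109 with protons (105 to 113), 41.1 in tissue (36.2 to 46.6) and 60.1 at day 11 (57.5 to 62.9). It was the only 1 of the 4 leading members with a higher level in both irradiated libraries than in the control. Hist1h1c, another somatic linker histone, had 64.9, 53.1, 62.2, 14.1 and 20.7 CPM in the same order of libraries (control, photons, protons, tissue, day 11). Hist1h1b had 60.4, 48.7, 41.4, 14.8 and 18.5 CPM. The remaining H1 genes were far lower, with 2.66, 3.71, 3.08, 2.18 and 1.12 CPM for Hist1h1d and 2.53, 1.66, 1.87, 1.51 and 2.37 CPM for Hist1h1a. Within the class, Hist1h1e took 39.4% of the H1 UMIs in the control, 53.1% with photons, 50.2% with protons, 55.8% in tissue and 58.5% at day 11.

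The H2B class was nearly 1 gene in the 7-day libraries. Hist1h2bc took 97.1% of H2B UMIs in the control, 97.2% with photons and 97.8% with protons, against 78.1% in tissue and 72.8% at day 11. Its level was 287 CPM in the control (278 to 295), 197 with photons (192 to 203), 189 with protons (184 to 194), 43.8 in tissue (38.7 to 49.5) and 18.9 at day 11 (17.4 to 20.5). No interval overlapped between control, irradiated, tissue and 11-day libraries, while the 2 irradiated libraries were close to each other. Each other H2B gene had at most 2.35 CPM in any library. Hist1h2bj had 2.09, 1.74, 0.857, 2.35 and 0.561 CPM and Hist1h2bb 1.65, 0.789, 0.740, 1.68 and 1.84 CPM (control, photons, protons, tissue, day 11). Hist1h2bm had 1.77, 0.828, 0.429, 0.840 and 0.904 CPM, and Hist1h2be 0.759, 0.947, 0.623, 2.35 and 1.06 CPM.

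H2A UMIs were spread over more genes. Hist1h2ae had 12.1 CPM in the control, 7.42 with photons, 9.55 with protons, 8.06 in tissue and 3.80 at day 11. Hist1h2ab had 10.1, 5.52, 6.94, 3.02 and 3.24 CPM, Hist3h2a 4.56, 6.47, 3.62, 2.69 and 2.74 CPM. Hist3h2a was thus highest with photons. A pair of further H2A genes also had their highest value outside the control. Hist2h2ac had 1.96, 1.499, 1.44, 2.69 and 3.68 CPM, and Hist1h2ap 0.949, 1.11, 2.65, 2.18 and 1.75 CPM. The leading H2A gene was Hist1h2ae in all 5 libraries, with 22.1% (day 11) to 38.4% (control) of the class.

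The H4 class was led by a pair of genes whose order changed between libraries. Hist1h4i took 51.4% of H4 UMIs in the control and Hist1h4d 33.1%, whereas with photons Hist1h4d took 44.6% and Hist1h4i 41.5%. At day 11 Hist1h4d took 60.2%, and Hist1h4h came second with 12.8%. In tissue Hist1h4d took 46.2%, and Hist1h4i and Hist1h4h had 19 UMIs each. Hist1h4d had 10.4 CPM in the control (8.91 to 12.2), 14.4 with photons, with a lower bound of 13.0, 10.9 with protons, 10.2 in tissue and 9.26 at day 11. Hist1h4i had 16.2, 13.4, 14.3, 3.19 and 0.780 CPM, and so was far lower in tissue and at day 11 only. Hist1h4h had 1.65, 1.78, 1.40, 3.19 and 1.96 CPM, Hist1h4c 1.46, 1.07, 0.623, 2.18 and 1.75 CPM, and Hist4h4 0.506, 0.316, 0.195, 1.01 and 0.998 CPM.

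H3 was the class with the fewest UMIs, at 7.53 CPM in the control, 4.18 with photons, 4.64 with protons, 8.40 in tissue and 6.17 at day 11. Hist1h3e led it in every library, with 2.40, 1.66, 1.33, 2.18 and 3.24 CPM. Hist1h3c had 2.03, 0.789, 1.21, 2.02 and 0.935 CPM. Hist1h3f had 17, 13, 20, 7 and 22 UMIs, Hist2h3c1 6, 6, 9, 7 and 10 UMIs, and Hist1h3d 5, 7, 10, 3 and 11 UMIs in the same order, too few to rank the libraries.

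Histone genes that start close together on opposite strands had like numbers of UMIs in some pairs and not in others. There were 7 such pairs with starts within 1000 bases. Hist1h2bc, with 17573 UMIs, starts 300 bases from Hist1h2ac, with 112. Hist1h2ae had 914 UMIs and Hist1h2bg, 176 bases away, 82. Hist2h2ac had 288 and Hist2h2be 22, and Hist1h2ap had 209 and Hist1h2br 16. Hist1h2bh had 18 and Hist1h3f 96. In contrast, Hist1h3c and Hist1h2bb had 140 and 150 UMIs, and Hist1h2ak and Hist1h2bn 24 and 19. The genes of a pair differ in their transcript ends, so these are captured UMIs and not a measure of promoter use.

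Malat1 is a long noncoding RNA that stays in the nucleus, and its share of a barcode's UMIs was used to divide the barcodes at 1%. In the 7-day libraries the group at 1% or more was small and deep. It held 1037 of 6494 control barcodes with a median of 5841 UMIs, 1568 of 15610 with photons with 4406.5 and 1376 of 16085 with protons with 5345, whereas 9369 of 9484 11-day barcodes and 158 of 1409 tissue barcodes belonged to it. In the control, members took 547 CPM in barcodes with 1% or more Malat1 and 606 CPM in the others. The values were 418 and 529 CPM with photons and 399 and 503 CPM with protons, so that in the 7-day libraries the members were lower where Malat1 was high.

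The classes did not share this direction in the control. H1 had 230.0 CPM at 1% or more Malat1 and 204 CPM under it, with a log2 ratio of 0.17 (0.07 to 0.27), and H2B had 252 and 327 CPM, with -0.38 (-0.46 to -0.29). Hist1h1e had 97.3 and 75.4 CPM and Hist1h2bc 241.5 and 320.2 CPM in the control. With photons, Hist1h1e had 116 and 124 CPM and Hist1h2bc 146 and 223 CPM, and with protons 101 and 113 CPM and 155 and 205 CPM. Hist1h2bc was lower in Malat1-rich barcodes in all 3 libraries, whereas the ratio of Hist1h1e was 0.36 (0.21 to 0.52) in the control, -0.09 (-0.20 to 0.02) with photons and -0.15 (-0.27 to -0.04) with protons. Depth differs between the Malat1 groups and its part in these differences was not tested.

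In tissue the direction was the opposite. Barcodes with 1% or more Malat1 had 633 CPM of member UMIs (578 to 692) and the others 116 (107 to 126). Cell type markers moved with this division, with immune cell markers at 18390 against 2108 CPM, endothelial markers at 1442 against 43.4 CPM, fibroblast markers at 50.9 against 3.47 CPM, salivary epithelium markers at 1192 against 484 CPM, acinar markers at 32960 against 43980 CPM and red blood cell markers at 1540.0 against 3275 CPM, and their part in the result was not tested. H2A had 107 against 9.44 CPM, H4 88.8 against 12.3 CPM, H3 35.3 against 4.43 CPM, H1 274 against 44.1 CPM and H2B 128 against 45.5 CPM. At day 11 only 115 barcodes lay under 1%, and they had 404 CPM against 165 CPM.

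**Figure D3:**
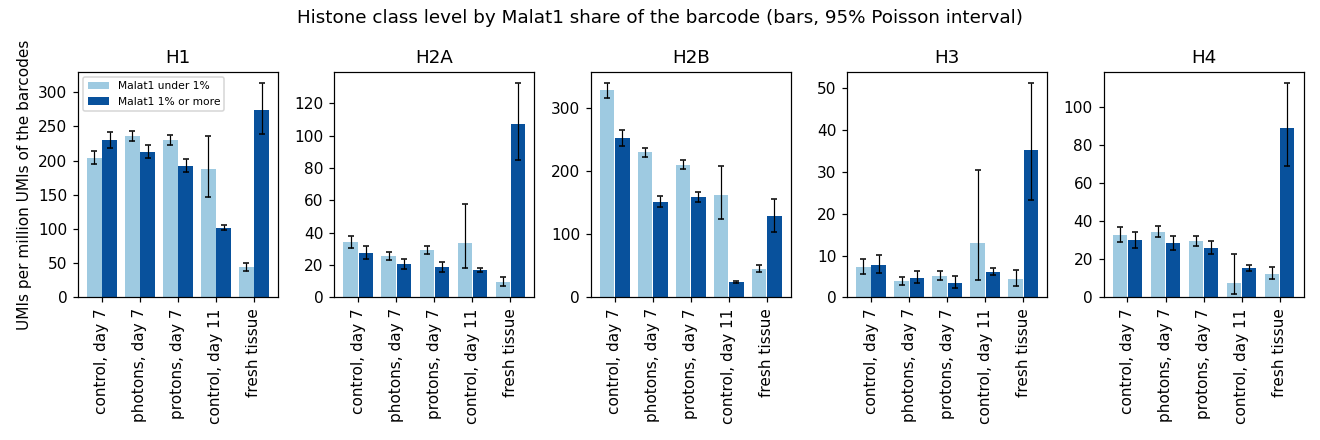
CPM of each histone class (panels, each with its own y axis from 0) in barcodes with a Malat1 share under 1% (light bars) and of 1% or more (dark bars) in each library, with 95% Poisson intervals. In tissue the dark bars are higher in all 5 classes, and for H2B they are lower in each of the 7-day libraries.

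To see which members followed the cell cycle, barcodes with at least 1000 UMIs were divided by their share of UMIs from 52 G2/M genes, none of them a member, at 0.5%. Cells in G2/M have just passed S phase. The group at or above the limit held 70 control, 64 photon, 83 proton, 103 11-day and 5 tissue barcodes. In the control, members took 1183 CPM there and 513 CPM in the other barcodes. The values were 1137 and 456 CPM with photons, 912 and 428 CPM with protons and 1401 and 142 CPM at day 11. The log2 ratio was 1.2 (1.08 to 1.32), 1.32 (1.14 to 1.49), 1.09 (0.92 to 1.26) and 3.29 (3.19 to 3.39), so that member UMIs were higher in G2/M-rich barcodes of each organoid library.

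The members did not move as one. Hist1h1b had 438 CPM in the G2/M-rich control barcodes and 29.6 CPM in the others, a log2 ratio of 3.84 (3.60 to 4.08), and 498 against 8.59 CPM at day 11. Hist1h2ae had 58.0 against 6.86 CPM in the control and 95.6 against 1.92 CPM at day 11, and Hist1h2ab 50.6 against 5.64 CPM and 57.0 against 2.14 CPM. Among the lower members, Hist1h3c (18.7 against 1.06 CPM), Hist1h2bj (20.6 against 0.980 CPM) and Hist1h1a (13.1 against 1.63 CPM) had the same direction in the control. At day 11 the 103 barcodes held 2.03% of all UMIs and 54.6% of the Hist1h1b, 50.8% of the Hist1h2ae and 80.0% of the Hist1h3c UMIs.

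Other members did not follow this division. Hist1h2bc had 135 CPM in the G2/M-rich control barcodes and 299 in the others, a log2 ratio of -1.15 (-1.50 to -0.81). It was also lower with photons, at 105 against 196 CPM, and with protons, at 138 against 192 CPM, and at day 11 it had 30.8 against 18.7 CPM. Hist1h1c had 50.6 against 62.0 CPM in the control, with a log2 ratio of -0.29 (-0.89 to 0.25), and Hist1h4i had 18.7 against 16.3 CPM, with 0.19 (-0.82 to 1.06). Hist1h1e lay between these behaviours, with 223 against 62.0 CPM in the control, 266 against 108 with photons, 145 against 94.2 with protons and 257 against 56.2 at day 11. Of these genes Hist1h2bc and Hist1h1c have AATAAA in the last 50 annotated bases, and so does Hist1h2ae, and Hist1h1e and Hist1h4i do not have these letters in that stretch.

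**Figure D4:**
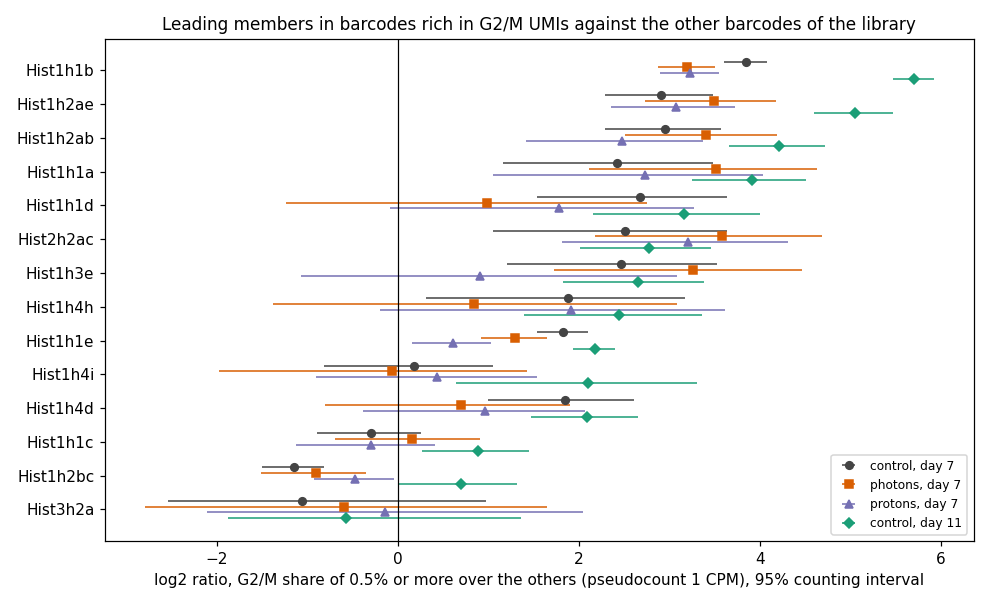
Log2 ratio (x axis, pseudocount 1 CPM) of the CPM in barcodes with a G2/M share of 0.5% or more to the CPM in the other barcodes with at least 1000 UMIs, for the 14 leading members (rows) in the 4 organoid libraries (colours and shapes), with 95% counting intervals. Hist1h1b is to the right of 0 in all 4 libraries, and Hist1h2bc is to the left in the 3 7-day libraries.

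A division by the share of 35 S phase genes gave the same directions for Hist1h1b in the organoid libraries and for Hist1h2bc in those of day 7. The limit of 0.5% first set left 0 control barcodes, and 0.1% was used in its place, where 1 UMI is enough in a barcode of 1000 UMIs, so that this division is coarse. Hist1h1b had 302 against 29.0 CPM in the control, 129 against 36.3 with photons, 119 against 28.8 with protons and 95.2 against 9.07 at day 11. Hist1h2bc had 126 against 304 CPM in the control, 125 against 201 with photons and 152 against 193 with protons. With at least 5000 UMIs per barcode the S phase division gave 98.2 against 296 CPM for Hist1h2bc and 373 against 25.9 CPM for Hist1h1b in the control.

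In tissue the member UMIs were concentrated in very few barcodes. The 10 barcodes with the most member UMIs held 464 of them, 42.7% of the library's, whereas in the organoid libraries the 10 highest held 1.85% to 5.29%. The tissue library had 1409 barcodes and the organoid libraries 6494 to 16085, so that 10 barcodes are a larger part of tissue. One tissue barcode held 132 member UMIs. The 26 tissue barcodes with an S phase share of 0.1% or more held 84 of 88 Hist1h1b UMIs (95.5%) and 44 of 48 Hist1h2ae UMIs (91.7%), but 6 of 261 Hist1h2bc UMIs (2.30%), while they held 1.89% of all UMIs. Of the 18 Hist1h2ab UMIs, 15 lay there (83.3%). Summed over the same 26 barcodes, immune cell markers took 22480 CPM against 3854 in the others, endothelial markers 810.0 against 212 CPM and salivary epithelium markers 721 against 571 CPM. Acinar markers took 10350 against 43220 CPM and red blood cell markers 169 against 3113 CPM, and fibroblast markers were at 0 there. These sums over barcodes do not assign the histone UMIs to a cell type.

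Photon and proton irradiation were each compared with the control, which both comparisons share, to see whether histone mRNA had changed 2 days after the dose. Members together were lower in both irradiated libraries, with a log2 ratio of -0.24 (-0.28 to -0.20) for photons and -0.31 (-0.34 to -0.27) for protons, on the log2(CPM + 1) scale. H2B was lower, with -0.54 (-0.59 to -0.48) and -0.61 (-0.67 to -0.55). H3 was lower, with -0.72 (-1.05 to -0.39) and -0.60 (-0.92 to -0.27), and so was H2A, with -0.39 (-0.55 to -0.22) and -0.27 (-0.43 to -0.11), but after thinning each barcode to 1000 UMIs H3 had 0.107 and H2A 0.1 with protons. H1 had 0.09 (0.02 to 0.15) and 0.02 (-0.04 to 0.08), and H4 0.04 (-0.12 to 0.20) and -0.15 (-0.31 to 0.02). With median-of-ratios scaling H1 had -0.005 and -0.062, and H4 had -0.054 with photons. Without Hist1h2bc the sum of the other members had 0.002 for photons and -0.07 for protons. Without both Hist1h2bc and Hist1h1e, a setting chosen after seeing the data, the sum had 173 CPM with photons and 172 with protons against 209.5 in the control, log2 ratios of -0.27 (-0.34 to -0.21) and -0.29 (-0.35 to -0.22).

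By gene, 10 members had at least 100 UMIs in each pair of libraries. With photons the lowest were Hist1h2ab with -0.77 (-1.06 to -0.47), Hist1h2ae with -0.64 (-0.91 to -0.37) and Hist1h2bc with -0.54 (-0.59 to -0.48). The highest were Hist1h1e with 0.51 (0.42 to 0.61), Hist1h4d with 0.43 (0.18 to 0.68) and Hist3h2a with 0.43 (0.08 to 0.77). With protons the lowest were Hist1h2bc with -0.60 (-0.66 to -0.54), Hist1h1b with -0.54 (-0.66 to -0.41) and Hist1h2ab with -0.49 (-0.77 to -0.20). The highest were Hist1h1e with 0.36 (0.27 to 0.46), Hist1h1d with 0.16 (-0.26 to 0.57) and Hist1h4d with 0.06 (-0.20 to 0.32). Over all kept barcodes Hist1h1e was thus above the control and Hist1h2bc below it with both kinds of irradiation. The study's methods exclude cells with feature counts under 2500. At a limit of at least 2500 genes, 193 control, 245 photon and 218 proton barcodes were left. This limit was applied to single members after seeing the data. With it Hist1h2bc had -1.08 (-1.28 to -0.88) and -0.83 (-1.03 to -0.64), but Hist1h1e had -0.02 (-0.27 to 0.24) and -0.17 (-0.44 to 0.09).

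A member was counted when its CPM differed by 1.5-fold with at least 20 UMIs in the 2 libraries. With photons 7 of 25 members were lower, against 4.23% of 11802 genes, and 0 were higher, against 9.73% of genes. With protons 8 of 26 members were lower, against 5.17% of genes, and 1 was higher, against 8.37%, which was Hist1h2ap (2.65 against 0.949 CPM). The median over these members was -0.25 with photons and -0.27 with protons, beside 0.09 and 0.08 over all genes. Most of the members counted had under 100 UMIs, and of the 10 with at least 100 UMIs 2 were lower with photons, against 2.46% of 9354 genes, and 1 with protons, against 2.78% of 9314. Of 52 G2/M genes, 29 were lower and 1 higher with photons, and 29 lower and 2 higher with protons.

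**Figure D5:**
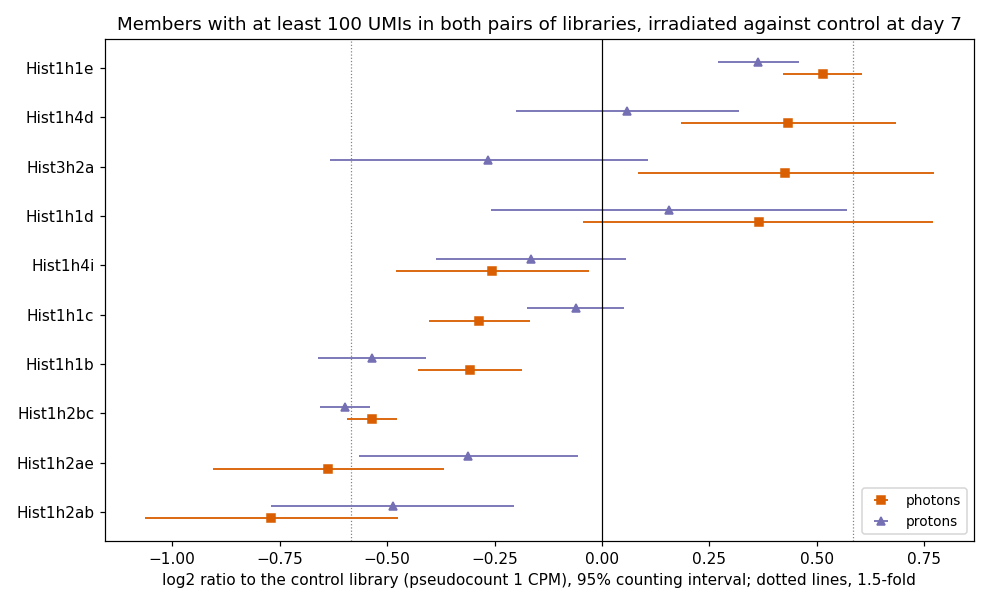
Log2 ratio of the photon (squares) and proton (triangles) library to the control at day 7 (x axis, pseudocount 1 CPM) with 95% counting intervals, for the 10 members with at least 100 UMIs in each pair of libraries (rows). Dotted lines mark 1.5-fold. Hist1h1e lies right of 0 and Hist1h2bc, Hist1h1b, Hist1h2ae and Hist1h2ab lie left of it for both.

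The same ratios were formed within divisions of the barcodes. In barcodes with 1% or more Malat1, 7 of 18 members were lower with photons, against 4.37% of genes, and 0 were higher, against 9.72%. With protons 11 of 18 were lower, against 6.03%, and 1 was higher, against 7.53%. H2B had a log2 ratio of -0.73 (-0.84 to -0.63) with photons in these barcodes and -0.51 (-0.58 to -0.44) in those with less Malat1, and with protons -0.66 (-0.77 to -0.56) and -0.64 (-0.71 to -0.57). H1 had -0.11 (-0.21 to -0.01) with photons and -0.25 (-0.36 to -0.15) with protons at 1% or more, but 0.21 (0.13 to 0.29) and 0.17 (0.09 to 0.25) under 1%. The median of all genes under 1% was 0.17 with photons and 0.19 with protons, and relative to it H1 had 0.04 and -0.02. At 1% or more Malat1, Hist1h1e had 0.26 (0.12 to 0.40) with photons and 0.06 (-0.09 to 0.21) with protons. Under 1% it had 0.71 (0.585 to 0.83) and 0.58 (0.45 to 0.71).

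In barcodes with a G2/M share under 0.5%, Hist1h2bc had 196 CPM with photons and 192 with protons against 299 in the control, log2 ratios of -0.61 (-0.67 to -0.54) and -0.64 (-0.71 to -0.57). Hist1h1e had 108 and 94.2 CPM against 62.0, with 0.79 (0.67 to 0.91) and 0.60 (0.47 to 0.72). In the G2/M-rich barcodes Hist1h2bc was at -0.36 (-1.06 to 0.30) and 0.04 (-0.53 to 0.59) and Hist1h1e at 0.26 (-0.20 to 0.70) and -0.62 (-1.14 to -0.12). In barcodes with an S phase share of 0.1% or more, Hist1h2bc had -0.01 (-0.35 to 0.35) and 0.28 (-0.09 to 0.64) and Hist1h1e -0.25 (-0.57 to 0.09) and -0.22 (-0.57 to 0.14). The lower Hist1h2bc and higher Hist1h1e levels were thus seen in barcodes poor in G2/M UMIs, whereas at or above the S phase limit the intervals of these 2 genes included 0. The sum and some classes were lower there. All members together had -0.69 (-0.84 to -0.55) with photons and -0.62 (-0.78 to -0.46) with protons, H1 -0.75 (-0.94 to -0.56) and -0.79 (-0.998 to -0.58), H2A -1.01 (-1.49 to -0.54) and -0.91 (-1.44 to -0.40), and H3, from 9 and 12 UMIs against 25, -2.24 (-3.30 to -1.19) and -1.34 (-2.37 to -0.36). The intervals of H2B and H4 included 0 in both comparisons, with H2B at -0.31 and -0.05 and H4 at -0.40 and -0.48. Hist1h1c had 0.03 and 0.02, and Hist1h4i, from 12 and 19 UMIs against 5, 0.27 (-1.14 to 1.76) and 1.42 (0.09 to 2.84). These barcodes had a median of 2686.5 UMIs in the control, 1272 with photons and 1198.5 with protons, and the part of this depth gap was not tested. Hist1h1b had 39.6 CPM with photons and 29.6 with protons against 29.6 in the control in barcodes with a G2/M share under 0.5%, with a ratio of 0.41 (0.23 to 0.59) for photons and an interval of -0.19 to 0.19 for protons, whereas over all barcodes it was lower in both. At or above the S phase limit Hist1h1b had 129 and 119 CPM against 302, with -1.22 (-1.49 to -0.95) and -1.34 (-1.66 to -1.03). In the G2/M-rich barcodes members as a whole had -0.06 (-0.26 to 0.15) with photons and -0.38 (-0.58 to -0.17) with protons, from 282 and 290 member UMIs.

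Between the irradiated libraries, members had a log2 ratio of -0.07 for protons to photons. Of 27 members, 5 were higher with protons by 1.5-fold, against 2.30% of 12050 genes, and 8 lower, against 4.27%. Of the 10 with at least 100 UMIs 0 were higher, against 0.699% of genes, and 1 was lower, against 1.27%. Among those with at least 100 UMIs, Hist3h2a was lower with protons, with -0.69 (-0.999 to -0.38), as was Hist1h4d with -0.37 (-0.59 to -0.16), while Hist1h1c had 0.22 (0.12 to 0.33) and Hist1h2ae 0.33 (0.08 to 0.58). Hist1h2bc, at 189 and 197 CPM, had -0.06 (-0.12 to -0.01).

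The control mSGOs of day 11 were compared with those of day 7, and here time, animals and run cannot be told apart. Members together had a log2 ratio of -1.78 (-1.83 to -1.73), beside a median of 0.91 over all genes. Under 1% Malat1, with 115 barcodes at day 11, members had -0.58 (-0.82 to -0.35). Without Hist1h2bc and Hist1h1e, a setting chosen after seeing the data, the sum had -1.23 (-1.30 to -1.16). H2B had -3.45 (-3.56 to -3.35), H1 -1.05 (-1.12 to -0.98), H4 -0.98 (-1.16 to -0.81), H2A -0.83 (-0.997 to -0.66) and H3 -0.24 (-0.54 to 0.05). Of 26 members, 12 were lower by 1.5-fold, against 9.34% of 13678 genes, and 3 were higher, against 67.6% of genes. Hist1h2bc had -3.85 (-3.97 to -3.73) and Hist1h4i -3.27 (-3.55 to -2.95), whereas Hist1h1e had -0.48 (-0.58 to -0.38) and Hist1h4d -0.15 (-0.41 to 0.11). The higher members were Hist2h2ac with 0.67 (0.25 to 1.07), Hist1h2ap with 0.50 (0.03 to 0.93) and Hist4h4. With median-of-ratios scaling all 3 turned, to -0.24 for Hist2h2ac, -0.41 for Hist1h2ap and -0.49 for Hist4h4. The median of the members was -0.22.

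Fresh tissue had a log2 ratio of -1.67 (-1.76 to -1.58) to the 7-day control for all members, beside a median of -1.05 over all genes. H2B had -2.37 (-2.54 to -2.22), H1 -1.53 (-1.68 to -1.39), H2A -0.50 (-0.77 to -0.23), H4 -0.49 (-0.76 to -0.22) and H3 0.14 (-0.31 to 0.58). With median-of-ratios scaling H2A had 0.553 and H4 0.56. Of 23 members, 9 were lower by 1.5-fold, against 68.7% of 11473 genes, and 5 were higher, against 14.1% of genes. Hist1h2bc had -2.68 (-2.86 to -2.50), Hist1h1c -2.13 (-2.44 to -1.82) and Hist1h1b -1.96 (-2.27 to -1.66), whereas Hist1h4d had -0.02 (-0.43 to 0.37). In barcodes with 1% or more Malat1, where the immune and endothelial markers were higher as given above, the sum reversed to 0.21 (0.07 to 0.35), with H1 at 0.25 (0.04 to 0.46), H2A at 1.91 (1.52 to 2.28) and H2B at -0.97 (-1.28 to -0.68). Hist1h1b had 0.31 (-0.09 to 0.70) and Hist1h1c -0.18 (-0.66 to 0.265) in these barcodes. Over all kept barcodes, H2B without Hist1h2bc had 0.484. Hist1h2bc was seen in 163 tissue barcodes, and 385 held a member UMI. Of the 1086 member UMIs kept in tissue, 464 lay in 10 barcodes. How far the reversal at 1% or more Malat1 rests on few barcodes was not tested.

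Genes that make or handle histone mRNA were taken from fixed lists. A list of 16 genes for histone mRNA maturation and transcription holds Slbp, the U7 snRNP proteins Lsm10 and Lsm11, and Npat, a coactivator of histone genes. Of its 15 members tested, 0 were past 1.5-fold in either direction with photons, against 9.73% of all genes higher and 4.23% lower, and 0 with protons, against 8.37% and 5.17%. Slbp had 41.3 CPM in the control, 30.5 with photons, 29.7 with protons, 15.5 in tissue and 51.4 at day 11, log2 ratios of -0.43 (-0.57 to -0.28) and -0.46 (-0.61 to -0.31) with photons and protons. It was the lowest of the 15 in both. The median of the list was 0.14 with photons and 0.11 with protons, beside 0.09 and 0.08 over all genes. At day 11, 8 of 16 genes of this list were higher, against 67.6% of all genes, and 3 lower, against 9.34%, with Npat at 38.3 against 10.0 CPM. Of 17 histone chaperones, which carry histones to DNA, 0 were higher and 1 was lower with photons, and likewise with protons. Of all genes, 9.73% and 8.37% were higher and 4.23% and 5.17% lower, so 1 lower chaperone is near the share of all genes. The lower gene was Asf1b in both, with 3.80 CPM in the control, 1.78 with photons and 2.14 with protons, named after its values were seen.

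The histone variants, of which several such as H3f3b are made outside S phase as well and from tailed mRNAs, gave 3834 CPM over 11 genes in the control, 3828 with photons, 4042 with protons, 1205 in tissue and 6496 at day 11. H3f3b, which encodes the variant H3.3, led them with 1384, 1595, 1693, 569.6 and 4294 CPM. H3f3a had log2 ratios of 0.14 (0.10 to 0.18) and 0.19 (0.15 to 0.23) with photons and protons, and H2afy, which encodes a macroH2A, 0.46 (0.36 to 0.56) and 0.45 (0.35 to 0.55). H2afz had -0.18 and -0.18, H2afv -0.38 and -0.23, H2afx, the variant phosphorylated at DNA breaks, -0.45 and -0.27, and H2afj -0.22 and -0.04. H1f0, a linker histone of resting cells, had -0.02 and 0.06, H2afy2 0.15 and 0.31, and H1fx, with 24 UMIs in the control, -0.56 and -0.67. Cenpa, the centromere variant, had 96.1 CPM in the control, 54.2 with photons and 64.2 with protons, with -0.81 (-0.92 to -0.71) and -0.57 (-0.67 to -0.47). At day 11 H3f3b had 1.64 (1.62 to 1.66), H1f0 1.00 (0.92 to 1.08) and H2afj -1.65 (-1.71 to -1.60), so that the core variant H3f3b and most replication-dependent H2B UMIs differed in opposite directions between the days.

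Of the cell cycle genes, 35 S phase genes gave 0 higher and 7 lower with photons, against 9.73% and 4.23% of all genes, and 1 higher and 9 lower with protons, against 8.37% and 5.17%. At 1% or more Malat1 their median log2 ratio was -0.23 with photons and -0.41 with protons, beside 0.07 and 0.03 over all genes. Under 1% it was -0.14 with both, beside 0.17 and 0.19. Ung, a DNA repair glycosylase, had 6.96 CPM in the control, 4.38 with photons and 4.13 with protons, and the higher gene was Rrm1, a subunit of ribonucleotide reductase, with 83.4 against 52.0 CPM. Among the G2/M genes, Mki67, a proliferation marker, had 25.1, 8.76 and 9.66 CPM, Birc5 52.2, 21.8 and 24.8 CPM and Cenpf 28.4, 12.0 and 14.1 CPM, while Psrc1 was higher, with 15.0, 25.6 and 25.9 CPM, and with protons so was Gtse1, with 6.78 against 3.99 CPM. The S phase genes as a sum had 408 CPM in the control, 407 with photons, 390.5 with protons, 129 in tissue and 504 at day 11.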

How the data were processed

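UMI counts per gene and barcode were used as deposited by the authors. The submitters' notes name Cell Ranger 5 and mm10, the file headers give software 3.0.1 and 7.0.0, and the study's methods name GRCm39, so no coordinate was taken from the count files. Barcodes with at least 200 genes and at most 5% mitochondrial UMIs were kept, and doublets were removed with Scrublet (scanpy 1.11.5, Python 3.11.15). The study's methods name a higher minimum, of 2500 features. In the control, photon and 11-day libraries its own threshold marked too few (under 0.5%), and the top scores were taken instead, at 0.8% per 1000 barcodes. Counts were summed per library and scaled to CPM. Intervals are exact Poisson for levels and conditional exact binomial for ratios (scipy 1.17.1), at 95%, and ratios used a pseudocount of 1 CPM. No test was possible across single libraries. The steps were tested on simulated data.

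The members and gene lists were chosen with earlier results of these data known. Named were the 5 members of each class with the most UMIs, the 3 highest and 3 lowest ratios per irradiated library among members with at least 100 UMIs, all histone variants, and up to 4 genes of each other list past 1.5-fold in both irradiated libraries with at least 200 UMIs. Other genes were named after their values were seen. The limit on the S phase share planned was 0.5%, and 0.1% was chosen after seeing the data. The day 11 comparison used genes in both gene lists.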

Additional observations from a re-analysis of the deposited data

How the results depend on the processing

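No paired analysis was possible because each group was 1 library. The log2 ratio of all members to the control changed as follows, in the order photons, protons, day 11 and tissue. It was -0.388, -0.453, -1.72 and 0.211 in barcodes with 1% or more Malat1, and in those under 1% it was -0.195 with photons, -0.579 at day 11 and -2.38 in tissue. It was -0.708, -0.66, -1.18 and -0.83 with at least 2500 genes per barcode, -0.33, -0.384, -2.69 and -0.616 with median-of-ratios scaling, -0.102, -0.198, -1.84 and -1.99 after thinning to 1000 UMIs, and 0.002, -0.066, -0.974 and -1.08 without Hist1h2bc. Without Hist1h2bc and Hist1h1e, chosen after seeing the data, it was -0.273, -0.286, -1.23 and -1.1, and -0.013 for protons to photons. With at least 500 genes it was -1.67 at day 11 and -1.06 in tissue, and with all deposited barcodes -1.87 and -2.24. Protons to photons gave 0.048 with at least 2500 genes. Class values past 1.5-fold that changed sign were H3 with protons after thinning (0.107), and in tissue H1 at 1% or more Malat1 (0.253) and H2B without Hist1h2bc (0.484). Smaller class values also changed sign under one or more settings, namely H1 and H4 with photons, H1 and H2A with protons, H2A, H2B and H3 between protons and photons, H3 at day 11, and H2A, H3 and H4 in tissue. At 1% or more Malat1, H1 had -0.11 with photons and -0.254 with protons, and in tissue H2A had 1.91 and H4 1.54. At 2-fold, 4 of 25 members were lower with photons (1.19% of all genes) and 4 of 26 with protons (1.68%), 3 of 27 were higher (0.581%) and 1 lower (1.16%) between protons and photons, 0 of 26 were higher at day 11 (56.4%) and 2 of 23 in tissue (11.3%). With at least 100 UMIs, 2 of 10 were lower with photons (2.46%), 1 of 10 lower (2.78%) and 0 higher (5.09%) with protons, 0 of 10 higher (0.699%) and 1 lower (1.27%) between them, 1 of 12 higher (65.7%) and 7 lower (8.93%) at day 11, and 0 of 8 higher in tissue (6.92%).

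Other limits on the divisions were chosen after seeing the data. For S phase the log2 ratio of all members was 1.49, 0.357, 1.26 and 2.46 (control, photons, protons, day 11) at a limit of 0.3%, and 0.97, 0.584, 0.755 and 2.28 with at least 5000 UMIs. For G2/M it was 1.04, 0.491, 0.527 and 2.82 at 0.3%, 0.505 (protons) and 2.94 (day 11) at 1%, and 1.33, 1.81, 1.44 and 3.4 with at least 5000 UMIs. The same settings on single members, also chosen after seeing the data, changed the sign of values past 1.5-fold for Hist1h1b (0.461) and Hist1h1d (1.01) at day 11 under 1% Malat1, for Hist2h2ac (-0.24) at day 11 with median-of-ratios scaling, and in tissue for Hist1h1e (0.333), Hist1h1b (0.314), Hist1h2ab (0.757) and Hist3h2a (0.517) at 1% or more Malat1 and for Hist1h1e (0.025) and Hist3h2a (0.457) with median-of-ratios scaling.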
